A study of Homo sapiens with 9 samples.

Results

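The G1 cyclins, their kinase partners and the proteins that hold them back were followed at the transcript level in 9 bulk RNA-seq libraries. The set of 10 genes was taken by symbol and holds the D-type cyclin genes CCND1, CCND2 and CCND3, the E-type cyclin genes CCNE1 and CCNE2, the kinase genes CDK4, CDK6 and CDK2, the inhibitor gene CDKN1B and the retinoblastoma gene RB1. All 10 have a row among the 17529 genes of the expression table. A filter on low counts kept 13129 genes for testing, with 9 of the 10 among them, and CCND2 did not pass it. The cells carry the label NCI-H69, a long-established line from small cell lung cancer, and were grown in medium with serum. In the si_CSNK2B group the siRNA targeted CSNK2B, the gene of the regulatory subunit of protein kinase CK2. In the si_P300 group it targeted P300, a histone acetyltransferase whose gene is EP300, and the NC group received a negative control siRNA. Each group has 3 replicates, and all of them, NC included, were transfected 48 hours before the RNA was harvested. The labels call the replicates biological without saying how the cultures were kept apart, so the p-values measure the spread between these libraries.

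Progression through G1 is driven by D-type cyclins, which bind CDK4 or CDK6, and by E-type cyclins, which bind CDK2. Both kinds of kinase phosphorylate the retinoblastoma protein, which then releases E2F transcription factors that switch on genes of DNA replication. The protein of CDKN1B, called p27, inhibits the cyclin E kinase and also rides on cyclin D complexes, and INK4 proteins such as p16 block CDK4 and CDK6. Loss of retinoblastoma function is typical of small cell lung cancer, and cells without it usually carry little cyclin D1 and much p16.

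Total counts were 13.1 to 17.0 M in si_CSNK2B, 14.3 to 17.5 M in si_P300 and 17.7 to 18.3 M in NC, so every knockdown library was shallower than every NC library, and the part of depth in the results was not tested. A count of 0 allowed up to 0.164 to 0.229 CPM by library, where CPM is the read count scaled to the TMM-adjusted library size, for counting error only. The targeted genes were read as a check of the labels. CSNK2B stood at 152 ± 14.6 CPM in si_CSNK2B and 182 ± 12.8 CPM in NC (SD, n = 3 each), a log2 fold change of -0.26 ± 0.104 (SE) that did not pass (edgeR adjusted p = 0.0732). EP300 stood at 36.8 ± 3.67 CPM in si_P300 and 45.2 ± 4.93 CPM in NC, a log2 fold change of -0.30 ± 0.127 that did not pass (edgeR adjusted p = 0.101). Each target stood about as low in the other knockdown, with CSNK2B at 156 ± 7.47 CPM in si_P300 and EP300 at 37.5 ± 4.42 CPM in si_CSNK2B. In si_CSNK2B against si_P300 the log2 fold change was -0.04 ± 0.104 for CSNK2B (95% interval -0.27 to 0.19) and 0.03 ± 0.128 for EP300 (-0.25 to 0.30), so the target transcripts do not tell the knockdowns apart. The groups are therefore called by their labels, and each direction below is that of the libraries so labelled. Of 10 neuroendocrine markers of small cell lung cancer, 7 had a row, and their summed level was 1.11 to 1.68 CPM in si_CSNK2B, 0.99 to 1.59 CPM in si_P300 and 0.832 to 1.304 CPM in NC. These levels go against the label, since NCI-H69 is known as a neuroendocrine line, and the identity of the cells was not tested. The 5 epithelial markers summed to 5063 to 5609 CPM in si_CSNK2B, 4872 to 5519 CPM in si_P300 and 5852 to 6703 CPM in NC, so every knockdown library lay below every NC library, and the part of this in the results was not tested. Of these, the keratin gene KRT18 fell (log2 fold changes -0.70 and -0.66), while KRT8 (-0.22 and -0.18), KRT19 (0.22 and 0.09), CDH1 (0.18 and 0.06) and EPCAM (0.11 and 0.18) did not pass. PTPRC, the pan-leukocyte marker, averaged 0.858, 0.674 and 0.531 CPM in si_CSNK2B, si_P300 and NC. The leukocyte list as a whole summed to 3600 to 3669, 2831 to 4442 and 2252 to 2442 CPM in the same order, almost all of it LYZ, which encodes lysozyme and is also an epithelial product. Fibroblast markers summed to 46.7 to 63.3 CPM and endothelial markers to 0.408 to 0.84 CPM over the 9 libraries.

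CCND1, for cyclin D1, and CDKN1B, for the inhibitor p27, fell in both knockdowns (log2 fold changes of -0.90 to -0.83), CCNE1, for cyclin E1, rose in si_P300, and the other 6 tested genes did not pass in either comparison with NC. In si_CSNK2B against NC, 0 of the 9 tested genes passed as higher and 2 as lower by edgeR's quasi-likelihood test (called at an adjusted p under 0.05 over all tested genes). DESeq2 also called 0 as higher, and CCNE1 had an unadjusted p of 0.0456 by edgeR. Of all 13129 tested genes 34.0% passed, 16.2% as higher and 17.8% as lower. In si_P300 against NC, 1 passed as higher and 2 as lower, where 28.3% of all tested genes passed, 13.6% as higher and 14.7% as lower. These counts are near the share that all genes give, so the number of G1 genes called is not in itself a result about them. Scaled by library size without TMM, 3316 genes passed as higher and 1705 as lower in si_CSNK2B and 2760 and 1424 in si_P300, and CCND1 and CDKN1B fell under that scaling too. The libraries of si_CSNK2B and NC did not overlap for 6 of the 9 genes, 1 above and 5 below, against 53.0% of all tested genes (26.2% above and 26.8% below). Those of si_P300 and NC did not overlap for 3 of the 9, 1 above and 2 below, against 46.5% of all tested genes (22.8% above and 23.8% below). The median log2 fold change of the 9 genes was -0.20 in si_CSNK2B and -0.15 in si_P300, beside 0.037 and 0.042 over all tested genes. Both comparisons use the same 3 NC libraries, so their values are given side by side and not as separate support for each other. In bulk RNA, fewer cells of a type and less RNA per cell cannot be told apart.

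**Figure D1:**
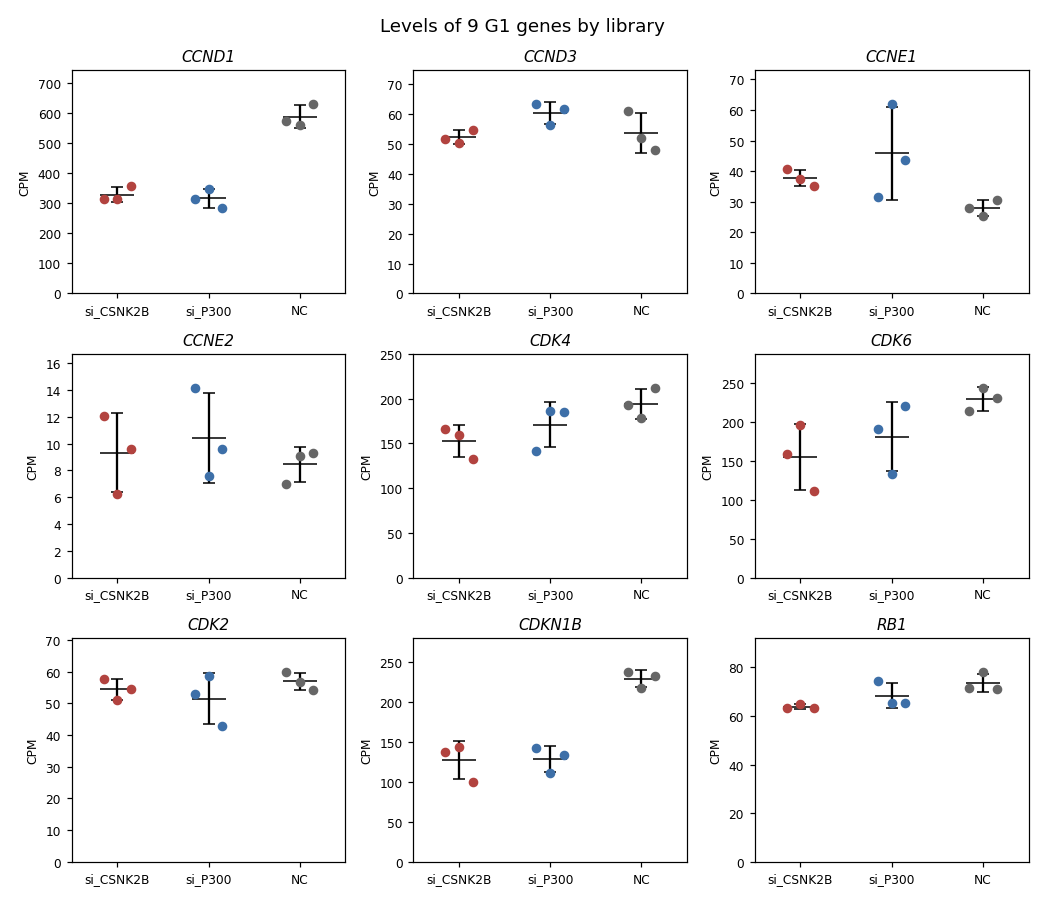
Level of each of the 9 tested G1 genes (normalised CPM, axis from 0) in the 3 libraries of si_CSNK2B, si_P300 and NC, with points for libraries in the order of their replicate numbers, horizontal bars for the mean and vertical bars for the SD. For CCND1 and CDKN1B all 6 knockdown libraries lie below all 3 NC libraries, and for CCNE1 all 6 lie above them.

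CCND1, which encodes cyclin D1, the mitogen-responsive partner of CDK4 and CDK6, was the most abundant of the 10 transcripts in NC. It had 313.7, 313.0 and 356.7 CPM in si_CSNK2B, 314.9, 348.2 and 282.7 CPM in si_P300, and 572.4, 560.4 and 629.3 CPM in NC. The 6 knockdown libraries were all low, with the highest of them well under the lowest NC library, and both knockdowns overlapped each other. The log2 fold change was -0.84 ± 0.109 in si_CSNK2B against NC (edgeR adjusted p = 1.69e-04), or -44.2% (95% interval -52.7% to -34.2%). In si_P300 it was -0.90 ± 0.109 (edgeR adjusted p = 1.68e-04), or -46.3% (interval -54.5% to -36.7%). Both calls held in 20 of 20 alternative settings, with log2 fold changes of -0.91 to -0.71 in si_CSNK2B and -0.98 to -0.79 in si_P300.

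CCND3, which encodes cyclin D3, did not follow CCND1. It had 51.6, 50.1 and 54.7 CPM in si_CSNK2B, 63.3, 56.3 and 61.5 CPM in si_P300, and 61.1, 51.8 and 47.9 CPM in NC, and the knockdown libraries of both groups overlapped those of NC. Its log2 fold change was -0.04 ± 0.111 in si_CSNK2B (95% interval -0.28 to 0.20, edgeR adjusted p = 0.806) and 0.17 ± 0.111 in si_P300 (-0.07 to 0.41, edgeR adjusted p = 0.267), and neither passed. CCND2, which encodes cyclin D2, had 1, 1 and 0 reads in si_CSNK2B, 2, 0 and 1 in si_P300 and 1, 0 and 1 in NC, under the limit that a count of 0 allows in every library, so no fold change was computed.

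The makeup of the D-type cyclin transcripts was read per length, from the deposited TPM, which divide counts by transcript length, and is given as a description. CCND1 made up 71.5%, 72.2% and 72.2% of the summed TPM of the D-type genes in si_CSNK2B and 67.9%, 72.0% and 65.4% in si_P300, against 79.8%, 81.6% and 84.8% in NC. The NC shares lie above all 6 knockdown shares, and CCND3 holds nearly all of the remainder. The summed D-type level was 198 ± 20.3 TPM in si_CSNK2B, 201 ± 11.2 TPM in si_P300 and 299.7 ± 5.23 TPM in NC (SD, n = 3 each).

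CCNE1, which encodes cyclin E1, the activator of CDK2 at the G1 to S step, ran the other way. It had 40.6, 37.5 and 35.3 CPM in si_CSNK2B, 31.6, 62.0 and 43.7 CPM in si_P300, and 27.8, 25.4 and 30.6 CPM in NC. All 6 knockdown libraries were above all 3 NC libraries, though si_P300 replicate 1 lay only just above the highest of NC, and si_P300 spread the widest. Against NC, the si_P300 log2 fold change of 0.71 ± 0.196 passed (edgeR adjusted p = 0.0187) and amounts to 63.7% (95% interval 21.7% to 120.0%). This call held in 17 of 20 alternatives and was lost without NC replicate 1 (log2 fold change 0.71, edgeR adjusted p = 0.0621), NC replicate 2 (0.62, 0.0790) or si_P300 replicate 2 (0.43, 0.0521). In si_CSNK2B against NC it was 0.44 ± 0.196, which did not pass (edgeR adjusted p = 0.104) and passed in 5 of 20 alternatives. Over all 20 the adjusted p ran from 0.00755 to 0.261. It passed with only the 6 compared libraries (SE 0.109, edgeR adjusted p = 0.00755) and without si_P300 replicate 1 (0.0233) or replicate 2 (0.0246). Library sizes alone (0.0370) and limma-trend on filtered TPM (0.0446) gave the other passes. The main fit shares 1 estimate of spread. The SD was 2.70 CPM in si_CSNK2B, 15.3 CPM in si_P300 and 2.60 CPM in NC, and its part here was not tested.

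The stretch just before the annotated start of CCNE1 is shown because CCNE1 is the gene of the set that rose, and promoters of this kind are often built of GC boxes, the sites of Sp1 factors. It spans chr19:29811741-29811897 on the plus strand (RefSeq, GRCh38.p14, 157 bases), and capitals mark each GC box, GGGCGG read on either strand.
CCNE1: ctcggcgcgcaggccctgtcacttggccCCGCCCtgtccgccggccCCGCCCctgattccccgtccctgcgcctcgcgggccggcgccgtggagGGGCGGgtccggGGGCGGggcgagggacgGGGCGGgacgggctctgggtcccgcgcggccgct
It holds 5 GC boxes, none of which overlaps another. Like this stretch, 35116 promoter windows were cut to the first 157 of the 250 bases before a RefSeq start. The bases nearest that start were thus left out of the comparison. Of these windows 27.1% held at least 1 GC box and 0.749% held at least as many. The E2F octamers TTTCCCGC and TTTGGCGC, searched on both strands, had 0 matches here and at least 1 in 1.16% of the windows, and such matches are letters in a window and not measured sites.

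CCNE2, which encodes cyclin E2, was the scarcest tested gene of the set. It had 12.1, 6.24 and 9.63 CPM in si_CSNK2B, 14.1, 7.58 and 9.60 CPM in si_P300, and 6.95, 9.07 and 9.32 CPM in NC. The groups overlapped throughout, and the log2 fold changes of 0.15 ± 0.267 in si_CSNK2B and 0.31 ± 0.265 in si_P300 did not pass (edgeR adjusted p = 0.696 and 0.404). CCNE1 held 85.8% ± 3.54 of the summed E-type TPM in si_CSNK2B, 84.9% ± 7.86 in si_P300 and 82.6% ± 2.58 in NC, ranges that overlap. In GENCODE 29, 35.2% of the 50-base words of CCNE2 transcripts also occur in INTS8, which lies on the opposite strand, and the strand setting of the counting is not given in the sources used here. Reads of such pairs cannot be told apart without strand, so the level of CCNE2 is uncertain to that extent.

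The balance between the leading D-type and E-type genes was set out after their values were seen and is given as a description. CCND1 stood at 3.33, 3.63 and 4.29 times the TPM of CCNE1 in si_CSNK2B and at 4.33, 2.45 and 2.79 times in si_P300, against 8.94, 9.56 and 9.09 times in NC. The lowest NC ratio lies above the highest knockdown ratio.

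**Figure D2:**
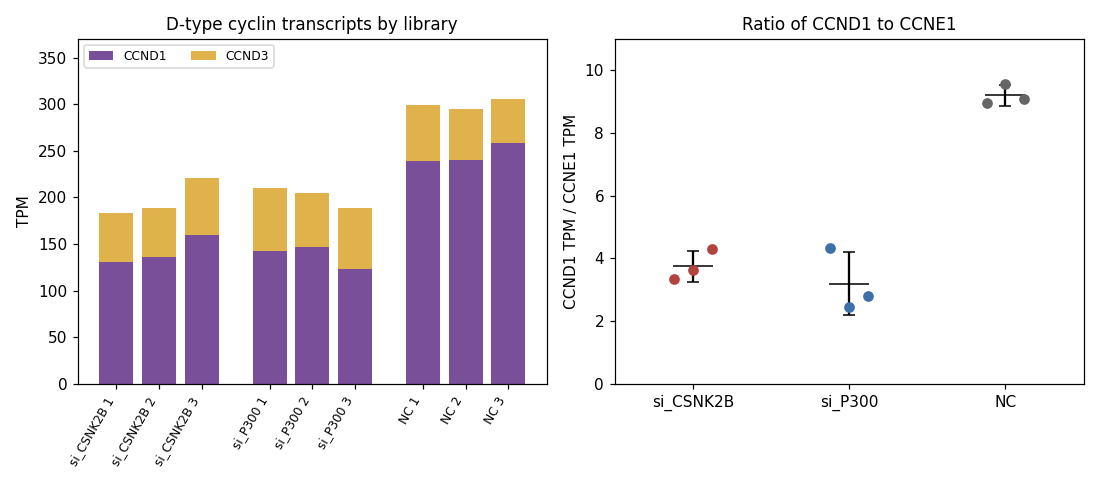
Left, deposited TPM of CCND1 and CCND3 stacked for each of the 9 libraries (axis from 0, CCND2 left out as it reached 0.03 TPM at most). Right, the ratio of CCND1 TPM to CCNE1 TPM per library with mean and SD, which averages 3.75 ± 0.491 in si_CSNK2B, 3.19 ± 1.00 in si_P300 and 9.20 ± 0.325 in NC.

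The kinase partners of the D-type cyclins were lower on average in both knockdowns, but did not pass. CDK6 had 158.8, 196.3 and 111.3 CPM in si_CSNK2B, 191.0, 132.8 and 221.2 CPM in si_P300, and 213.9, 244.1 and 231.0 CPM in NC. Every si_CSNK2B library lay below every NC library, while si_P300 replicate 3 lay within NC, and both knockdown groups were spread widely. Its log2 fold change was -0.56 ± 0.206 in si_CSNK2B (95% interval -1.01 to -0.11, edgeR adjusted p = 0.0524) and -0.34 ± 0.205 in si_P300 (-0.79 to 0.11, edgeR adjusted p = 0.239). The value in si_CSNK2B stands close to the threshold and passed in 9 of 20 alternatives, with adjusted p-values of 0.0185 to 0.175.

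CDK4 had 166.2, 159.8 and 132.3 CPM in si_CSNK2B, 141.8, 186.2 and 185.1 CPM in si_P300, and 193.2, 178.5 and 211.9 CPM in NC. Here too si_CSNK2B lay below NC without overlap and si_P300 overlapped it. The log2 fold change was -0.35 ± 0.133 in si_CSNK2B (95% interval -0.64 to -0.06, edgeR adjusted p = 0.0617, passing in 4 of 20 alternatives) and -0.19 ± 0.133 in si_P300 (-0.48 to 0.10, edgeR adjusted p = 0.317). GENCODE 29 places TSPAN31 on the opposite strand of CDK4, and 34.9% of the 50-base words of CDK4 occur in another gene, so part of its count may come from there. CDK4 made up 86.4% ± 2.30 of the summed TPM of CDK4 and CDK6 in si_CSNK2B, 85.6% ± 3.87 in si_P300 and 84.4% ± 1.71 in NC, with overlapping ranges.

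CDK2, the kinase of the E-type cyclins, did not pass in either comparison. It had 57.6, 51.0 and 54.7 CPM in si_CSNK2B, 52.9, 58.8 and 42.9 CPM in si_P300, and 59.8, 56.7 and 54.4 CPM in NC, and the groups overlapped. The log2 fold change of -0.07 ± 0.121 in si_CSNK2B had a 95% interval of -0.33 to 0.20 (edgeR adjusted p = 0.702), and that of -0.15 ± 0.121 in si_P300 one of -0.41 to 0.12 (edgeR adjusted p = 0.392).

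CDKN1B, which encodes the inhibitor p27, fell with CCND1 and by about as much. It had 137.81, 143.74 and 100.02 CPM in si_CSNK2B, 142.5, 111.1 and 133.9 CPM in si_P300, and 237.3, 217.0 and 232.8 CPM in NC. All 6 knockdown libraries were low, and the highest of them stood well under the lowest NC library. The log2 fold change was -0.85 ± 0.143 in si_CSNK2B (edgeR adjusted p = 9.71e-04), or -44.5% (95% interval -55.3% to -31.1%). In si_P300 it was -0.83 ± 0.143 (edgeR adjusted p = 0.00153), or -43.6% (interval -54.5% to -30.0%), and both calls held in 20 of 20 alternatives. Per TPM, CDKN1B stood at 0.697 ± 0.174 times CCND1 in si_CSNK2B, 0.736 ± 0.149 times in si_P300 and 0.693 ± 0.0399 times in NC, values that overlap. Against CDK2, which p27 inhibits, CDKN1B stood at 2.15 ± 0.459 times in si_CSNK2B, 2.37 ± 0.575 times in si_P300 and 3.72 ± 0.218 times in NC. No knockdown library reached the NC range. CDK2 itself averaged 45.5, 43.2 and 45.9 TPM in the same order, so this ratio mostly repeats the fall of CDKN1B. Both ratios are descriptions of transcripts and not of protein.

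The CCAAT boxes near the start of CDKN1B are shown because this gene fell in both knockdowns and because such boxes, bound by NF-Y, are a common feature of cell cycle promoters. Each line gives 30 bases of chromosome 12 on the plus strand (RefSeq, GRCh38.p14), with CCAAT in capitals.
CDKN1B chr12:12717182-12717211: tcacgcgaccagCCAATctcccggcggcgc
CDKN1B chr12:12717306-12717335: ccgccgccgcaaCCAATggatctcctcctc
The boxes lie 174 to 170 and 50 to 46 bases before the RefSeq start. Of 35116 windows of 250 bases before a start, 32.0% held CCAAT on either strand at least once and 9.53% at least as often as that of CDKN1B, so the letters are common.

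RB1, which encodes the retinoblastoma protein that both kinds of G1 kinase phosphorylate, was transcribed in every library. It had 63.4, 64.9 and 63.4 CPM in si_CSNK2B, 74.3, 65.3 and 65.5 CPM in si_P300, and 71.6, 78.0 and 71.2 CPM in NC. The si_CSNK2B libraries lay together below those of NC, and si_P300 overlapped NC. The log2 fold change was -0.20 ± 0.0955 in si_CSNK2B (95% interval -0.41 to 0.0037, edgeR adjusted p = 0.117) and -0.11 ± 0.0952 in si_P300 (-0.31 to 0.10, edgeR adjusted p = 0.429), and neither passed. In NC, CCND1 stood at 246 TPM and RB1 at 29.2 TPM, with CDKN2A at 0 to 0.0594 CPM. High CCND1 with CDKN2A near 0 is not the usual pattern of a small cell lung cancer line without retinoblastoma function, so these values, like the neuroendocrine markers, go against the label. A transcript level does not show whether a protein works.

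**Figure D3:**
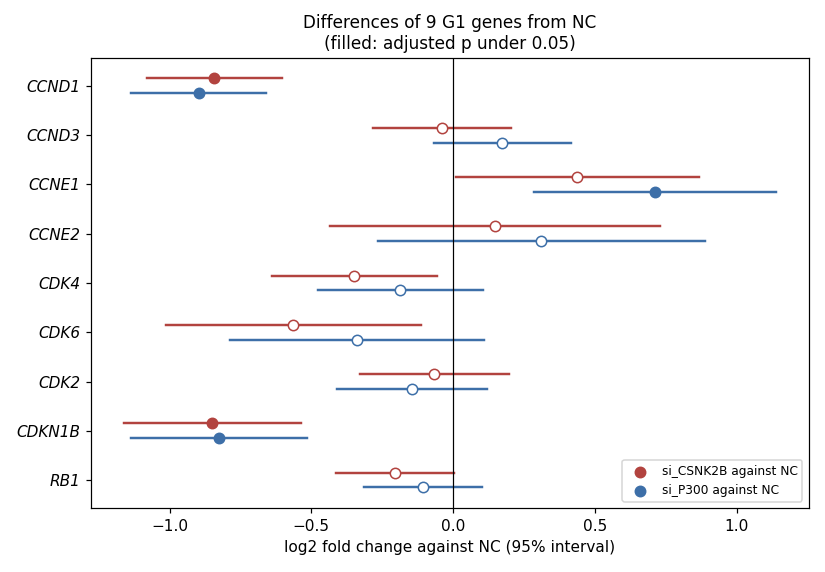
Log2 fold change of the 9 tested G1 genes in si_CSNK2B against NC (red) and in si_P300 against NC (blue), as edgeR estimates (points) with 95% intervals (lines), filled where the adjusted p is under 0.05. CCND1 and CDKN1B are filled in both comparisons near -0.85, and CCNE1 at 0.71 in si_P300.

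Ordered per length, the 10 transcripts changed places at the top. In si_CSNK2B CDK4 led at 152 TPM and CCND1 came next at 142 TPM, with overlapping libraries, followed by CDKN1B at 97.4 TPM. In si_P300 CDK4 stood at 172 TPM, above CCND1 at 138 TPM and CDKN1B at 101 TPM, with no overlap between neighbours. The lowest CDK4 library (148.32 TPM) there lay only just above the highest of CCND1 (147.24 TPM). In NC CCND1 led at 246 TPM, ahead of CDK4 at 188 TPM and CDKN1B at 170 TPM, again with no overlap, and CCND1 stood above 96.4% of all genes. Below these, CCND3 (55.3, 63.4 and 53.7 TPM in si_CSNK2B, si_P300 and NC), CDK2 (45.5, 43.2 and 45.9 TPM), CDK6 (24.2, 28.8 and 34.7 TPM) and RB1 (26.2, 28.3 and 29.2 TPM) formed the middle. CCNE1 held rank 6 at 38.0 TPM in si_CSNK2B and rank 5 at 45.8 TPM in si_P300, where it overlapped CCND3 and CDK2, against rank 8 at 26.8 TPM in NC, where it overlapped RB1. CCNE2 followed at 6.37, 7.46 and 5.64 TPM and CCND2 at 0.0133, 0.0167 and 0.0133 TPM.

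Set directly against each other, the knockdowns gave no call on any of these genes. In si_CSNK2B against si_P300, 0 of the 9 tested genes passed, where 0.00% of all tested genes did (0 by edgeR, with 661 at an unadjusted p under 0.05, 8 by DESeq2 and 0 by limma-voom). The smallest unadjusted p among the 9 was 0.0806, for CCND3. The log2 fold change was 0.06 ± 0.108 for CCND1 (95% interval -0.18 to 0.29), -0.02 ± 0.142 for CDKN1B (-0.33 to 0.29) and -0.27 ± 0.194 for CCNE1 (-0.70 to 0.15). The call of CCNE1 in si_P300 is therefore not shown to be particular to that knockdown. For 2 of the 9, CCND3 and RB1, the si_CSNK2B libraries lay below those of si_P300 without overlap, and for 0 they lay above, where 7.14% of all tested genes did not overlap (3.83% below and 3.31% above). They had log2 fold changes of -0.21 ± 0.111 and -0.10 ± 0.0956 that did not pass (edgeR adjusted p = 0.946 and 0.959).

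Among the other inhibitors of the G1 kinases, CDKN2C rose in both comparisons with NC and CDKN2B fell in si_P300. Of 6 such genes 5 were tested, and 1 rose and 0 fell in si_CSNK2B, while 1 rose and 1 fell in si_P300, with median log2 fold changes of -0.06 and -0.18. Of all tested genes 34.0% passed in si_CSNK2B and 28.3% in si_P300, so the number of calls among 5 genes says little. CDKN2C, which encodes the INK4 protein p18, rose at a low level, with 5.95 ± 1.10 CPM in si_CSNK2B, 5.81 ± 1.02 CPM in si_P300 and 3.77 ± 0.305 CPM in NC (log2 fold changes 0.66 and 0.62, edgeR adjusted p = 0.0312 and 0.0461). CDKN2B, which encodes p15, fell in si_P300 at 75.04 ± 18.03 CPM against 130 ± 13.1 CPM in NC (-0.80, edgeR adjusted p = 0.0124), and stood at 93.0 ± 23.0 CPM in si_CSNK2B (-0.49, edgeR adjusted p = 0.0797). CDKN1A, which encodes p21, was the most abundant at 344 ± 71.0, 316 ± 21.6 and 357 ± 14.5 CPM in si_CSNK2B, si_P300 and NC and did not pass (-0.06 and -0.17). CDKN2D, for p19, read -0.54 and -0.35 and did not pass. CDKN2A, for p16, was at 0 to 0.223 CPM in si_CSNK2B, 0 to 0.489 CPM in si_P300 and 0 to 0.0594 CPM in NC and was not tested.

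Genes that set the stability and activation of these proteins were called about as often as all tested genes, of which 34.0% passed in si_CSNK2B and 28.3% in si_P300. Of 12 genes of G1 cyclin and p27 turnover, 1 rose and 2 fell in si_CSNK2B, and 0 rose and 2 fell in si_P300 (medians -0.16 and -0.08). CKS1B, the cofactor through which the ligase subunit SKP2 recognises p27, fell to 151 ± 29.7 CPM in si_CSNK2B and 163 ± 7.83 CPM in si_P300, against 274 ± 21.8 CPM in NC (-0.86 and -0.75, edgeR adjusted p = 5.52e-04 and 0.00179). SKP2 itself rose in si_CSNK2B (0.49, edgeR adjusted p = 0.0159) and read 0.32 in si_P300 (edgeR adjusted p = 0.101). FBXO4, an F-box gene tied to cyclin D1 turnover, fell in both (-0.75 and -0.56), and AMBRA1, the adaptor that targets D-type cyclins, did not pass (-0.23 and -0.11). Of 6 genes of kinase activation and assembly, 1 rose and 2 fell in each comparison. CDK7, the kinase that activates the cell cycle kinases, fell (-0.61 and -0.65), as did its assembly factor MNAT1 (-0.37 and -0.49). CCNH, of the same list and named after its values were seen, did not pass (-0.0052 and -0.12, edgeR adjusted p = 0.978 and 0.472). The chaperone HSP90AB1 rose (0.51 and 0.52). CDC25A, the phosphatase that activates CDK2, did not pass (0.30 and 0.39).

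Downstream, the pocket protein and E2F genes were called in both directions. Of 12 tested, 2 rose and 4 fell in si_CSNK2B, and 2 rose and 2 fell in si_P300 (medians -0.06 and -0.03). Beside this list and the next, 34.0% of all tested genes passed in si_CSNK2B and 28.3% in si_P300. RBL1, which encodes the pocket protein p107, fell in si_CSNK2B at 21.5 ± 1.74 CPM against 36.5 ± 2.65 CPM in NC (-0.76, edgeR adjusted p = 0.00291) and read -0.42 in si_P300 (edgeR adjusted p = 0.0599). E2F5 (-0.56 and -0.67) and E2F6 (-0.48 and -0.32), which encode repressor E2F proteins, fell in both, and the activator gene E2F2 rose in si_P300 (0.76) and read 0.32 in si_CSNK2B. E2F7, a further repressor, fell in si_CSNK2B (-0.65), E2F8 rose in both (0.53 and 0.48) and RBL2, for the pocket protein p130, rose in si_CSNK2B (0.29), the last 3 named after their values were seen. Of 8 genes of the DREAM and MMB complexes, which repress and then drive cell cycle genes, 0 rose in either comparison, 1 fell in si_CSNK2B and 2 in si_P300 (medians -0.08 and -0.03). LIN54, their DNA-binding subunit, fell in both (-1.09 and -0.75), and RBBP4 fell in si_P300 (-0.77) and read 0.15 in si_CSNK2B. MYBL2 (-0.34 and -0.05) and FOXM1 (0.03 and 0.24) did not pass.

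Among 17 E2F targets of the G1 to S step, 0 rose and 4 fell in si_CSNK2B, and 4 rose and 1 fell in si_P300, with medians of -0.20 and 0.18. Of all tested genes 16.2% rose and 17.8% fell in si_CSNK2B, and 13.6% rose and 14.7% fell in si_P300. The summed level of the 17 was 1880, 1509 and 1268 CPM in si_CSNK2B replicates 1, 2 and 3, against 1522 to 1664 CPM in NC. In si_P300 it was 2022, 1781 and 1791 CPM, with every library above NC. Replicate 1 of si_CSNK2B also lay above NC, replicate 2 only just below it and replicate 3 below it. CDC6, which loads the replicative helicase, fell to 53.6 ± 9.09 CPM in si_CSNK2B and 62.5 ± 5.14 CPM in si_P300, against 109 ± 0.989 CPM in NC (-1.02 and -0.80, edgeR adjusted p = 1.17e-04 and 8.03e-04). CHEK1, a checkpoint kinase gene, fell in si_CSNK2B (-0.69), as did the helicase genes MCM2 (-0.50) and MCM6 (-0.47), named after their values were seen. In si_P300 the origin gene ORC1 (0.73) and the helicase gene MCM4 (0.67) rose, and so did PCNA (0.50) and RRM1 (0.45), also named after their values were seen. Directly between the knockdowns 0 of the 17 passed, with a median of -0.31 in si_CSNK2B against si_P300, so the different counts are not shown to be a difference between them.

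Several later cyclins and proliferation markers rose. Beside the counts that follow, 16.2% of all tested genes rose and 17.8% fell in si_CSNK2B, and 13.6% rose and 14.7% fell in si_P300, so with 6 tested genes a list 0 lower calls say little. Of 7 genes of S, G2 and M cyclins and CDK1, 6 were tested, and 2 rose in si_CSNK2B and 3 in si_P300 with 0 lower in either (medians 0.43 and 0.41). CCNF rose to 45.1 ± 7.22 CPM in si_CSNK2B and 48.2 ± 1.71 CPM in si_P300, against 26.3 ± 1.75 CPM in NC (0.78 and 0.88). CCNB1, for the mitotic cyclin B1, rose in both (0.71 and 0.59), and CDK1, its kinase, rose in si_P300 (0.67) and read 0.46 in si_CSNK2B (edgeR adjusted p = 0.0857). CCNB2 did not pass (0.40 and 0.23). Of 6 proliferation markers 3 rose in si_CSNK2B and 2 in si_P300, led by BUB1 (0.93 and 0.99) and MKI67 (0.48 and 0.64). AURKA read 0.54 in si_CSNK2B, where it rose, and 0.40 in si_P300, where it did not pass. AURKB did not pass in either (0.30 and 0.35). The summed level of the 6 markers was 934 to 1383 CPM in si_CSNK2B, 1064 to 1274 CPM in si_P300 and 797 to 893 CPM in NC, and its part in the G1 results was not tested. Replicate 1 stood out in si_CSNK2B, with 1383 CPM against 995 and 934 in replicates 2 and 3. The S, G2 and M list summed to 1112, 761 and 636 CPM in the same order, against 562 to 584 CPM in NC.

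**Figure D4:**
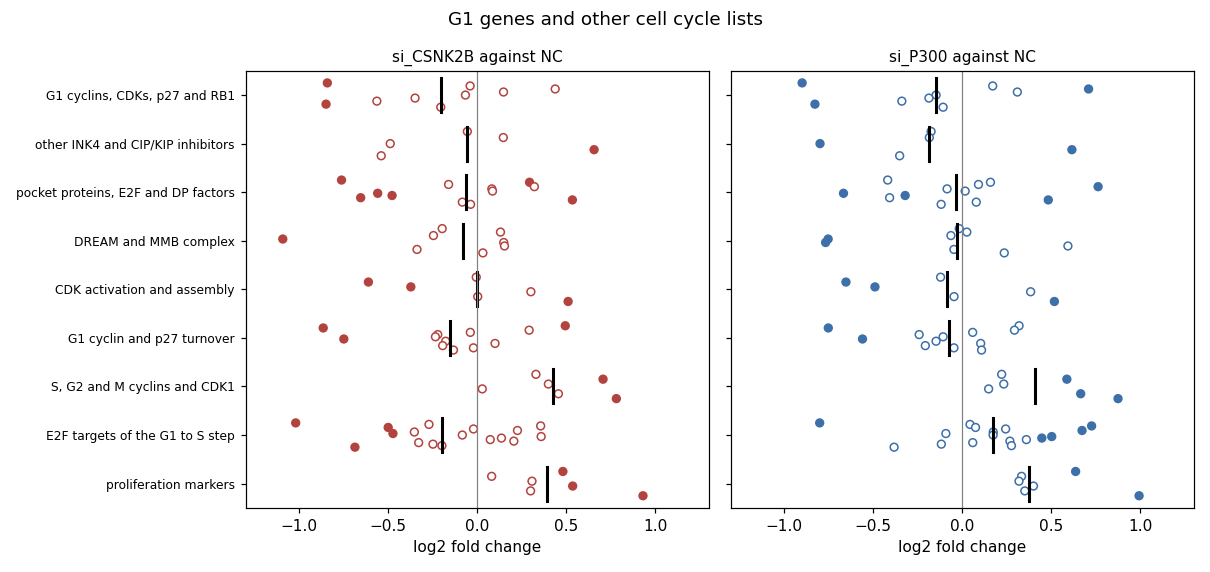
Log2 fold change of each tested gene in the G1 set and in 8 other cell cycle lists, in si_CSNK2B against NC (left) and si_P300 against NC (right), with filled points where the edgeR adjusted p is under 0.05 and a black bar at the median of each list. The median of the S, G2 and M cyclins lies at 0.43 and 0.41 and that of the proliferation markers at 0.39 and 0.38, while that of the G1 set lies at -0.20 and -0.15.

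Genes with the nearest profile to the called members over the 9 libraries were sought among 11068 genes, as the root mean square difference between log2 CPM profiles centred on their mean. For CCND1 they were SBDS (0.0737), a ribosome maturation factor, and R3HDM4 (0.0929), where the median over all genes was 0.460. For CDKN1B they were EPB41L4B (0.0668), of the band 4.1 family, and NET1 (0.0800), with a median of 0.468. For CCNE1 they were CTSA (0.102), a lysosomal protease, and RIOX1 (0.118), a ribosomal oxygenase, with a median of 0.418. SBDS read -0.97 in si_CSNK2B and -0.93 in si_P300 and CTSA 0.36 and 0.61, and these are descriptions of likeness in level only.

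In the GRCh38 annotation of GENCODE 29 the called genes lie on different chromosomes. CCND1 (gene ID 595) spans 69641087 to 69654474 of chromosome 11 on the plus strand, and 8.34% of its 50-base words occur in LTO1 on the opposite strand. CDKN1B (gene ID 1027) spans 12715058 to 12722371 of chromosome 12, and CCNE1 (gene ID 898) spans 29811898 to 29824308 of chromosome 19, both on the plus strand and with 0 words shared with another gene. CDK6 (gene ID 1021), next to the threshold in si_CSNK2B, spans 92604921 to 92836594 of chromosome 7 on the minus strand with 0.262% of its words shared.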

How the data were processed

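RNA of 9 libraries was read as single-end 50-base reads on a BGISEQ instrument, per the labels. HISAT and Bowtie2 on GRCh38.p13 are named in the submitters' processing notes, without roles or versions. The counter, its annotation and its strand setting are not given in the sources used here. Per the file headers, the deposited columns hold expected counts estimated per gene by the authors, TPM and FPKM scaled by the authors for length, and a normalized read count, a signal scaled by 1 factor per library. FPKM, the signal and 12 columns of group averages were not used, and 1 TPM value was missing.

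Expected counts were rounded and tested in edgeR 4.0.16 (R 4.3.3). Genes were kept by filterByExpr with a minimum count of 10, scaled by TMM and fitted in 1 quasi-likelihood model to all 9 libraries. Tests were two-sided, with Benjamini-Hochberg adjustment over 13129 genes and calls at an adjusted p under 0.05. The SE is the log2 fold change divided by the square root of F, in size, and intervals are 95%. CPM are counts over TMM-scaled library sizes. With 3 against 3 libraries an exact permutation test cannot go below 0.1, so none was used. Alternatives were RLE factors, library sizes alone, DESeq2 1.42.0, limma-voom (limma 3.58.1), no filter, a stricter filter, the 6 compared libraries, a replicate block, each library left out in turn, and limma-trend on log2 TPM with pseudocounts of 1 and 0.1. The scripts were tested on simulated data with 200 changed genes. Far more were called against NC here (4462 in si_CSNK2B and 3709 in si_P300), so the simulation does not test scaling under so many changes.

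The G1 genes, the other lists and their markers were chosen with earlier results of these data known. From each other cell cycle list, up to 4 genes with the smallest p were named, and others are said to be named after their values were seen. CDKN2A, which was not tested, and the markers of cell types and cell states were named outside this rule. Sequences are RefSeq promoter windows (GRCh38.p14), which matched 6 of the 10 genes, and CDKN1B is cut to 30 bases a site because GENCODE 29 places an exon there.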

Additional observations from a re-analysis of the deposited data

How the results depend on the processing

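Over 180 settings in each comparison with NC (9 genes under 20 alternatives), 155 in si_CSNK2B and 176 in si_P300 kept direction and side of the threshold, as did 171 of 180 in si_CSNK2B against si_P300. The 18 that newly passed in si_CSNK2B against NC were 9 of CDK6, 5 of CCNE1 and 4 of CDK4, so 4 genes passed as lower with DESeq2 and with only the 6 libraries compared, and 1 as higher with library sizes alone, with only the 6 libraries and with filtered TPM. Leaving out 1 library gave 0 to 1 higher and 2 to 4 lower in si_CSNK2B and 0 to 1 higher in si_P300, where 0 were higher at an adjusted p under 0.01. All genes called numbered 2928 (without NC replicate 3) to 5166 in si_CSNK2B and 2191 (without NC replicate 3) to 3882 in si_P300 with 1 library left out, 2322 in si_P300 without NC replicate 1, and 2525 and 1900 at an adjusted p under 0.01. Between the knockdowns DESeq2 called 8 genes and limma-trend on log2 (TPM + 0.1) called 1. With library sizes alone the median of all genes moved to 0.16 and 0.15 from 0.037 and 0.042 with TMM, in si_CSNK2B and si_P300 against NC. Directions turned for values that passed under no alternative in that comparison, and the cause was not tested. In si_CSNK2B against NC, CCND3 read 0.087 with library sizes alone, 0.046 and 0.047 on TPM with pseudocounts of 1 and 0.1, 0.046 on filtered TPM and -0.12 to 0.063 with 1 library left out (higher without NC replicate 1). CDK2 read 0.059 with library sizes alone, and CCNE2 -0.087 (without si_CSNK2B replicate 1) to 0.36 with 1 library left out. In si_P300 against NC, RB1 read 0.0054 with library sizes alone. Between the knockdowns, leaving out 1 library gave -0.016 to 0.13 for CCND1, -0.48 to 0.0072 for CCNE1, -0.40 to 0.12 for CCNE2, -0.036 to 0.18 for CDK2 and -0.12 to 0.12 for CDKN1B. Replicate numbers did not pair the libraries, as deviations of 9 same-numbered pairs correlated at -0.29 to 0.061 with 0 over 0.1. With the replicate block 3828, 3012 and 0 genes were called in si_CSNK2B against NC, si_P300 against NC and between the knockdowns. Depth limits CCND2, at 0 to 2 reads per library.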

Other observations

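The spread within si_P300 ran through several of the G1 genes, and was looked at after the values were seen. Over all tested genes, log2 CPM of libraries correlated at 0.974 to 0.986 within si_P300, 0.984 to 0.986 within si_CSNK2B and 0.991 to 0.992 within NC. The spread is thus not shown to be particular to the G1 genes, and the orders below are descriptions. Replicate 2 had the highest CCNE1 of that group (62.0 CPM, against 31.6 and 43.7 in replicates 1 and 3) and the highest CCND1 (348.2, against 314.9 and 282.7). It had the lowest CDK6 (132.8, against 191.0 and 221.2), the lowest CDKN1B (111.1, against 142.5 and 133.9) and the lowest CCNE2 (7.58, against 14.1 and 9.60). Within si_CSNK2B, replicate 3 had the lowest CDK6 (111.3, against 158.8 and 196.3), CDK4 (132.3, against 166.2 and 159.8) and CDKN1B (100.02, against 137.81 and 143.74), together with the highest CCND1 (356.7, against 313.7 and 313.0). For CDK6 the SD was 42.6 CPM in si_CSNK2B, 44.9 CPM in si_P300 and 15.1 CPM in NC, and for CDKN1B 23.7, 16.3 and 10.7 CPM. For CCND1 it was 25.01, 32.8 and 36.8 CPM and for CCND3 2.31, 3.65 and 6.79 CPM, with NC the widest.

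Markers tied to cell state in non-neuroendocrine small cell lung cancer were read beside the G1 genes. Of 6 such markers 1 rose and 4 fell in si_CSNK2B and 1 rose and 2 fell in si_P300, where 34.0% and 28.3% of all tested genes were called. S100A10, of the S100 calcium-binding family, rose to 3865 ± 770 CPM in si_CSNK2B and 3086 ± 409 CPM in si_P300, against 1679 ± 38.1 CPM in NC (log2 fold changes 1.20 ± 0.149 and 0.88 ± 0.148, edgeR adjusted p = 1.23e-04 and 0.00131). POU2F3, the tuft cell transcription factor, fell in si_CSNK2B (-0.95 ± 0.266, edgeR adjusted p = 0.0167) and read -0.22 ± 0.255 in si_P300 (edgeR adjusted p = 0.550), and REST, a repressor of neuronal genes, fell in si_CSNK2B (-0.37 ± 0.115, edgeR adjusted p = 0.0283) and read -0.27 ± 0.114 in si_P300 (edgeR adjusted p = 0.0930). EPHA2, a receptor tyrosine kinase gene, fell in si_CSNK2B and si_P300 (log2 fold changes -1.56 ± 0.154 and -1.42 ± 0.153, edgeR adjusted p = 2.73e-05 and 7.34e-05). YAP1, the transcriptional coactivator of Hippo signalling, had 192 ± 28.3 CPM in si_CSNK2B, 216 ± 64.0 CPM in si_P300 and 401 ± 8.70 CPM in NC and fell in both (-1.06 ± 0.191 and -0.89 ± 0.190, edgeR adjusted p = 0.00146 and 0.00504).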
